A study of Zea mays with 2 samples.

Results

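The cells described here were maize mesophyll (MS) protoplasts, ranked within each library by how much of their RNA came from 3 transcripts of the C4 carbon cycle: PEP1 (phosphoenolpyruvate carboxylase), CAH1 (carbonic anhydrase) and MDH6 (the NADP-dependent malate dehydrogenase). Of 13444 deposited cell barcodes, 7374 passed the filters on genes per cell and on organelle transcripts. Of these, 7278 held at least 10 UMIs (unique molecular identifiers, each counted as 1 transcript) of the 3 genes together and more of them than of the bundle sheath transcripts ME1 and RBCS1, and were taken as MS cells. They were 3968 of 7340 barcodes in library 1 and 3310 of 6104 in library 2. The MS cells of each library were then divided into 4 bins of equal size by the share of the 3 transcripts in their UMIs, from bin 1 with the lowest to bin 4 with the highest share, so the compared cells were chosen by the measured UMIs of these genes. Bin 4 was compared with bin 1, 992 cells each in library 1 and 827 each in library 2, after every other gene was summed over the cells of a bin.

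Both libraries came from seedlings of B73, an inbred line, at the V2 stage, and the labels give no treatment. Each was made from 1 pool of protoplasts, which were released from the distal segment (6 cm) of the second leaf of 6 plants. The plants grew in a greenhouse, those of the second pool at another time under the same conditions. Protoplasts from different plants of a pool were not told apart, so the library was the replicate (n = 2) and both bins of a comparison came from the same pool. Library 1 held 88081896 UMIs over all barcodes and library 2 held 41924567, and the median MS cell had 19083 UMIs in library 1 and 9448 in library 2. Bins 1 and 4 summed to 19050054 and 18748724 UMIs in library 1 and to 7649857 and 8898430 in library 2. The libraries shared 11 barcode sequences, 5 of them among the MS cells.

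In a C4 leaf, MS cells take up CO2, which carbonic anhydrase hydrates to bicarbonate and phosphoenolpyruvate carboxylase fixes into oxaloacetate. In maize most of the oxaloacetate is reduced to malate in the MS chloroplast by malate dehydrogenase and passed to the bundle sheath (BS), where NADP-malic enzyme (ME1) releases the CO2 for Rubisco. Pyruvate returns to the MS chloroplast, where pyruvate orthophosphate dikinase regenerates the acceptor. The MS chloroplast also carries linear electron transport with abundant photosystem II, and it reduces part of the phosphoglycerate that the BS sends out, returning triose phosphate.

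Together, PEP1, CAH1 and MDH6 made up between 0.0836 and 4.4996% of the UMIs of an MS cell in library 1, with a median of 1.24%, and between 0.106 and 4.51% in library 2, with a median of 1.32%. The distribution had 1 broad peak in each library, with no gap at the limits. Counting error accounted for 5.02% of the variance of the share in library 1 and for 5.74% in library 2. The highest cell of bin 1 had 1.0298% and the next cell 1.0301% in library 1, and the lowest cell of bin 4 had 1.4702% and the next one down 1.4700%. In library 2 the cells on either side of the limit of bin 1 had 1.0100 and 1.0105%, and those at the limit of bin 4 had 1.6356 and 1.6354%. Within 5% of the limits lay 411 and 493 cells of library 1 and 216 and 298 cells of library 2.

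**Figure D1:**
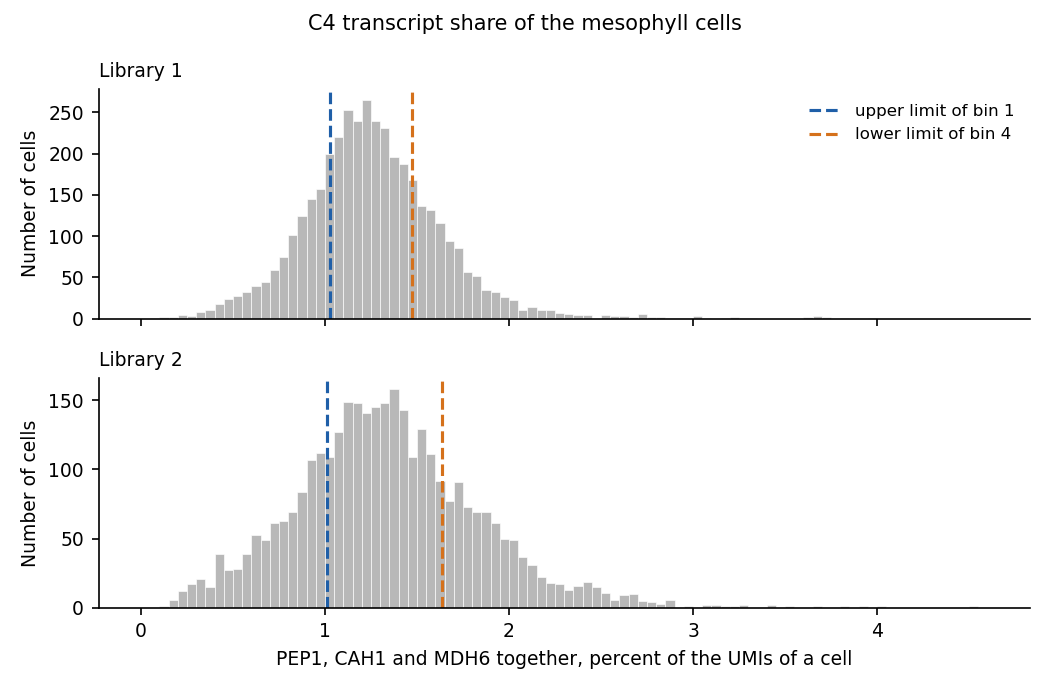
Number of MS cells (vertical axis) by the share of their UMIs from PEP1, CAH1 and MDH6 (horizontal axis, percent), for libraries 1 and 2. Dashed lines are the limits of bin 1 and bin 4; the shares form 1 continuous peak with medians of 1.24 and 1.32%.

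The 3 genes that set the ranking are given as a description. PEP1 took 0.236, 0.303, 0.358 and 0.525% of the UMIs from bin 1 to bin 4 of library 1 and 0.278, 0.449, 0.606 and 0.865% in library 2. CAH1 went from 0.425 to 0.931% in library 1 and from 0.320 to 0.801% in library 2. MDH6 moved least, from 0.175 to 0.252% and from 0.152 to 0.319%. Over the cells, the shares of PEP1 and CAH1 had a Spearman correlation of 0.36 in library 1 and 0.58 in library 2, those of PEP1 and MDH6 of 0.13 and 0.31, and those of CAH1 and MDH6 of 0.23 and 0.43, over 3968 and 3310 cells that share a library and, as shares of 1 total, are not independent.

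To ask whether the genes varied together beyond the sum that ranked them, the cells were ranked by 2 of the genes and the remaining one was read. Each one was higher in bin 4 in both libraries. PEP1 went from 2888 to 4418 CPM (UMIs of the gene per 1000000 UMIs of the sum) in library 1 and from 3519 to 7383 CPM in library 2 when CAH1 and MDH6 ranked the cells, a log2 fold change of 0.90 ± 0.18 (SE; edgeR quasi-likelihood test with Benjamini-Hochberg adjustment, adjusted p = 1.22e-04). CAH1 went from 5612 to 7934 CPM and from 3741 to 7345 CPM when PEP1 and MDH6 ranked them (0.78 ± 0.16, adjusted p = 3.66e-05). MDH6 went from 1935 to 2384 CPM and from 1744 to 2981 CPM when PEP1 and CAH1 ranked them (0.62 ± 0.14, adjusted p = 3.66e-04). With these 3 rankings 7.5, 17.3 and 14.6% of all genes tested passed the same threshold.

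Depth was nearly equal between the compared bins of library 1, whose median cells had 18134 UMIs (bin 1) and 18035 UMIs (bin 4), and rose from 8408 to 9571 UMIs in those of library 2. Chloroplast-genome transcripts made up 1.62 and 2.02% of the median cell's UMIs in library 1 and 1.26 and 1.18% in library 2. When the bins were drawn within 10 classes of cells by depth, 2257 genes changed, and within 10 classes by chloroplast share, 2451 changed.

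Outside the 3 genes, 16040 genes had enough UMIs to be tested, and 2317 of them, 14.4%, changed between bin 4 and bin 1 (edgeR quasi-likelihood test with the library as a term, Benjamini-Hochberg adjusted p under 0.05). In bin 4, 830 genes were higher, 5.17% of those tested, and 1487 were lower, 9.27%. Of the 2317, 2287 moved the same way in both libraries and 30 did not, while 10657 of all 16040 tested genes moved the same way. The median log2 fold change of all genes tested was 0.01. Genes with a description, from which the lists made by keyword below were drawn, passed more often: 1021 of the 2856 tested. The shares of all genes given beside those lists are therefore a low background. The descriptions came from the study, whose gene lists include the markers of its clusters, chosen on cells of 1 of these libraries. Lists made by keyword can therefore hold genes picked because they varied among these cells, and their counts are not independent evidence. The calls depend on the library term: bin 4 of each library is set against bin 1 of the same library, and without that term 0 genes passed in edgeR, with 668 at an unadjusted p under 0.05. The spread that the test used was shared over all genes because the 4 sums leave 1 residual degree of freedom. It came from how far the 2 pools disagreed on the change from bin 1 to bin 4, not from the difference between the pools. A gene whose own change differed between the pools could therefore still pass, and the p-values speak for these 2 pools only. DESeq2 called 1041 genes, all of which edgeR also called. All values are shares of the UMIs of a sum, so a gene that fell took a smaller share, and the amount of RNA per cell was not measured.

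Bins 2 and 3 were not used in that test. Of the 830 higher genes, 630, or 75.9%, were also higher in bin 3 than in bin 2 in both libraries, against 24.4% of all genes tested. Of the 1487 lower genes, 1023, or 68.8%, were lower in bin 3 than in bin 2 in both libraries, against 31.9% of all genes tested. Steps in 1 direction through all 4 bins of both libraries were seen in 452 of the higher genes, 54.5%, against 4.42% of all genes tested. They were seen in 628 of the lower genes, 42.2%, against 6.15%. These steps include bins 1 and 4, by which the genes were called, so called genes were favoured in advance.

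**Figure D2:**
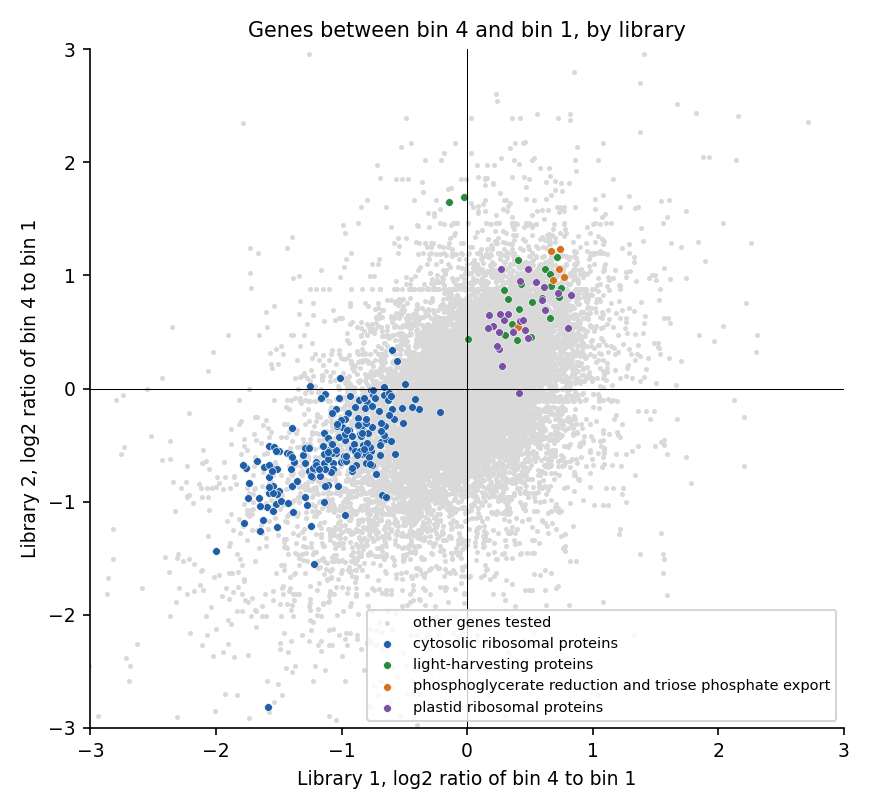
Log2 ratio of bin 4 to bin 1 in library 1 (horizontal) against library 2 (vertical), 1 point per gene tested; 46 genes lie beyond the axis limits of 3. The cytosolic ribosomal proteins lie at the lower left with a median of -1.02 in library 1 and -0.55 in library 2, and the photosynthesis and plastid ribosome lists at the upper right.

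Of the other MS genes of the C4 cycle, 5 of 8 rose and 1 fell, against 5.17 and 9.27% of all genes tested, with a median log2 fold change of 0.53. PDK1, pyruvate orthophosphate dikinase, had 3526, 4816, 5678 and 7228 CPM from bin 1 to bin 4 of library 1 and 5238, 8208, 9553 and 12237 CPM in library 2. It rose with each bin in both libraries (log2 fold change 1.199 ± 0.14 SE, adjusted p = 1.60e-15). The plastid oxoglutarate/malate transporter 1 gene (Zm00001d023929) exchanges dicarboxylates across the chloroplast envelope. It rose from 167 to 325 CPM in library 1 and from 101.5 to 265 CPM in library 2, and bins 1 and 4 did not overlap over the libraries (log2 fold change 1.24 ± 0.18 SE, adjusted p = 3.81e-09). The regulatory protein of the dikinase, PDRP1, rose from 1533 to 1787 CPM in library 1 and from 1490.0 to 2374 CPM in library 2 (log2 fold change 0.52 ± 0.15 SE, adjusted p = 0.00946), and a further dikinase gene, pyruvate orthophosphate dikinase 4 (Zm00001d022274), rose from 179 to 222 CPM in library 1 and from 117 to 213 CPM in library 2 (log2 fold change 0.65 ± 0.18 SE, adjusted p = 0.00588).

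The carbonic anhydrase genes with identifiers close to that of CAH1 moved in opposite directions. Carbonic anhydrase 3 (Zm00001d044096) rose from 4118 to 5588 CPM in library 1 and from 6366 to 9062 CPM in library 2 (log2 fold change 0.54 ± 0.14 SE, adjusted p = 0.00134), whereas Beta carbonic anhydrase 4 (Zm00001d044095), far less abundant, fell from 54.5 to 30.3 CPM in library 1 and from 43.1 to 22.6 CPM in library 2 (log2 fold change -0.82 ± 0.20 SE, adjusted p = 0.00121). These genes are related to CAH1, and reads that the counting could not assign to 1 of them make the values of single genes less certain. Alanine aminotransferase 5 (Zm00001d014258), which converts pyruvate and alanine, had 105 CPM in bin 1 and 90.02 CPM in bin 4 of library 1 and 103.8 and 90.7 CPM in those of library 2 and did not pass the test (adjusted p = 0.731). The phosphoenolpyruvate/phosphate translocator (Zm00001d039674), which carries the acceptor out of the chloroplast in exchange for phosphate, had 33.1 CPM in bin 1 and 22.03 CPM in bin 4 of library 1 and 20.02 and 12.96 CPM in those of library 2 (adjusted p = 0.0812).

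All 6 genes listed for phosphoglycerate reduction and triose phosphate export rose, with a median log2 fold change of 0.89, against 0.01 over all genes. Glyceraldehyde phosphate dehydrogenase (Zm00001d027488), which performs the reduction itself, was the most abundant, with 5920.0, 6902, 7729.8 and 9126 CPM from bin 1 to bin 4 of library 1 and 5907, 8071, 9167 and 10845 CPM in library 2 (log2 fold change 0.82 ± 0.13 SE, adjusted p = 1.22e-07). Phosphoglycerate kinase (Zm00001d038579) supplies its substrate and rose from 1321 to 2109 CPM in library 1 and from 1410.2 to 2766 CPM in library 2 (log2 fold change 0.89 ± 0.15 SE, adjusted p = 5.25e-07). The second dehydrogenase gene (Zm00001d022107) rose less, from 655 to 833 CPM in library 1 and from 901 to 1238 CPM in library 2 (log2 fold change 0.47 ± 0.16 SE, adjusted p = 0.0299).

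The 2 genes for the triose phosphate/phosphate translocator, the carrier that exports triose phosphate from the chloroplast, rose to a similar extent. Zm00001d039258 rose from 588 to 948 CPM in library 1 and from 344 to 763 CPM in library 2 (log2 fold change 0.99 ± 0.17 SE, adjusted p = 4.56e-07) and Zm00001d009028 rose from 980.4 to 1498 CPM in library 1 and from 411 to 904 CPM in library 2 (log2 fold change 0.94 ± 0.16 SE, adjusted p = 7.41e-07). Triosephosphate isomerase (Zm00001d021310), which interconverts the triose phosphates, rose from 680.1 to 1115 CPM in library 1 and from 615 to 1151 CPM in library 2 (log2 fold change 0.88 ± 0.16 SE, adjusted p = 5.12e-06). All 6 genes went up step by step through the 4 bins of both libraries, so the cells between the extremes lay between them. Summed, the list took 1.01, 1.19, 1.33 and 1.56% of the UMIs outside the 3 genes in the bins of library 1 and 0.959, 1.30, 1.48 and 1.77% in library 2.

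Of 21 genes for light-harvesting chlorophyll-binding proteins, which collect light for the photosystems, 19 rose and none fell (median log2 fold change 0.68, against 5.17% of all genes higher). A light-harvesting chlorophyll a/b binding protein gene (Zm00001d026599) had 5887 CPM in bin 1 and 7509.7 CPM in bin 4 of library 1 and 1925 and 3998 CPM in those of library 2. It rose within each library, while bin 1 of library 1 lay above bin 4 of library 2, so the difference between the libraries was larger than that between the bins (log2 fold change 0.77 ± 0.14 SE, adjusted p = 3.72e-06). Another of the most abundant genes, an LHCII type protein (Zm00001d021784), rose from 4623 to 5986 CPM in library 1 and from 2992 to 5354 CPM in library 2 (log2 fold change 0.68 ± 0.14 SE, adjusted p = 6.52e-05), and a photosystem I chlorophyll-binding protein (Zm00001d046786) rose from 2984 to 4086 CPM in library 1 and from 3339 to 4326 CPM in library 2 (log2 fold change 0.48 ± 0.14 SE, adjusted p = 0.00935).

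A pair of light-harvesting genes behaved differently in the 2 pools, and was singled out after its values were seen. Chlorophyll a-b binding protein 48 (Zm00001d044396) had 786 CPM in bin 1 and 745 CPM in bin 4 of library 1 and 56.1 and 172 CPM in those of library 2, and photosystem II light harvesting complex gene B1B2 (Zm00001d044399) had 1393 CPM in bin 1 and 1213 CPM in bin 4 of library 1 and 231 and 686 CPM in those of library 2. Both were slightly lower in bin 4 of library 1 and far higher in that of library 2, so their calls (log2 fold changes of 0.80 and 0.75) rest on library 2 alone. With the cells ranked by MDH6 alone their log2 fold changes were -1.50 and -1.67.

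Of 45 tested genes for subunits of the photosystems and of electron transport, 31 rose and 1 fell, against 5.17 and 9.27% of all genes (median log2 fold change 0.52). Photosystem II3 (Zm00001d049387) was the most abundant, with 15607 CPM in bin 1 and 20434 CPM in bin 4 of library 1 and 19078 and 25369 CPM in those of library 2; the values of bin 4 lay above those of bin 1 without overlap (log2 fold change 0.47 ± 0.12 SE, adjusted p = 0.00213). The 33 kDa subunit of the oxygen-evolving complex (Zm00001d036535), part of the water-splitting enzyme, rose from 7039.6 to 9816 CPM in library 1 and from 7148 to 10638 CPM in library 2 without overlap (log2 fold change 0.60 ± 0.13 SE, adjusted p = 2.07e-04). Photosystem II reaction center W protein (Zm00001d043299) had 7825 CPM in bin 1 and 9110.5 CPM in bin 4 of library 1 and 10329 and 11034 CPM in those of library 2 and did not pass (adjusted p = 0.278). The gene that fell, an oxygen-evolving enhancer protein 3 copy (Zm00001d002993), had 24.1 CPM in bin 1 and 25.4 CPM in bin 4 of library 1 and 47.4 and 17.3 CPM in those of library 2, and its fall rests on library 2 (adjusted p = 0.0495).

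Of 7 genes of chlorophyll synthesis, 5 rose and none fell (median log2 fold change 0.70, against 5.17% of all genes higher). The ChlH subunit of magnesium chelatase (Zm00001d026603), which puts magnesium into protoporphyrin at the first step specific to chlorophyll, had 118.3, 138, 159 and 244 CPM from bin 1 to bin 4 of library 1 and 60.1, 89.01, 116 and 165 CPM in library 2 and was among the 12 largest increases of all abundant genes (log2 fold change 1.31 ± 0.19 SE, adjusted p = 9.41e-10). Magnesium-protoporphyrin IX monomethyl ester cyclase (Zm00001d008230) rose from 544 to 837 CPM in library 1 and from 298 to 639.5 CPM in library 2 (log2 fold change 0.93 ± 0.17 SE, adjusted p = 3.42e-06) and geranylgeranyl hydrogenase 1 (Zm00001d018034), which makes the phytol tail, rose from 611 to 791 CPM in library 1 and from 328 to 514 CPM in library 2 (log2 fold change 0.58 ± 0.17 SE, adjusted p = 0.00834). The remaining pair that rose was Glutamyl-tRNA reductase (Zm00001d026405), the entry point of the pathway, with a log2 fold change of 0.81, and Chlorophyllide a oxygenase (Zm00001d042026), which makes chlorophyll b, with 0.70. Protochlorophyllide reductase C (Zm00001d013937), the light-dependent step, had 275 CPM in bin 1 and 301 CPM in bin 4 of library 1 and 79.4 and 133 CPM in those of library 2 (adjusted p = 0.0512). Glutamyl-tRNA reductase 1 (Zm00001d032532) had a log2 fold change of -0.03 and did not pass (adjusted p = 0.956).

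Phytoene synthase 2 (Zm00001d012394), the entry into carotenoid synthesis, rose from 42.6 to 86.3 CPM in library 1 and from 54.0 to 146.5 CPM in library 2 (log2 fold change 1.29 ± 0.20 SE, adjusted p = 6.68e-09), and carotene isomerase 3 (Zm00001d012868), of the same pathway, rose from 42.9 to 76.1 CPM in library 1 and from 41.1 to 98.9 CPM in library 2 (log2 fold change 1.11 ± 0.20 SE, adjusted p = 1.44e-06). Sucrose and starch synthesis was represented by 5 genes, of which 3 rose, against 5.17% of all genes. Sucrose-phosphate synthase (Zm00001d012036), which makes the precursor of sucrose in the cytosol, rose from 68.4 to 127 CPM in library 1 and from 107 to 246 CPM in library 2 without overlap (log2 fold change 1.12 ± 0.19 SE, adjusted p = 3.01e-07). Starch synthase I (Zm00001d045261) rose from 19.96 to 38.3 CPM in library 1 and from 26.2 to 56.9 CPM in library 2 (log2 fold change 1.09 ± 0.21 SE, adjusted p = 6.29e-06) and Starch synthase IIIb-1 (Zm00001d026337) had a log2 fold change of 0.72 (adjusted p = 0.00867). Sucrose-phosphatase 1 (Zm00001d010523) and Starch synthase 3 (Zm00001d002256) had log2 fold changes of 0.44 and 0.53 and did not pass. The sucrose and starch genes and the iron genes below were chosen outside the rule for named genes.

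Ribosomal protein genes, listed by keyword among the genes with a description, divided by compartment. All 183 genes listed for cytosolic ribosomal proteins were tested, and 146 of them, 79.8%, fell, against 9.27% of all genes; none rose, and the median log2 fold change was -0.78. All 183 had a fold change below 0, and 177 were lower in bin 4 of both libraries, against 5213 of all 16040 genes. Their summed share of the UMIs outside the 3 genes was 1.54, 1.18, 0.907 and 0.754% from bin 1 to bin 4 of library 1 and 1.065, 0.886, 0.838 and 0.731% in library 2. The median log2 ratio was -1.02 within library 1 and -0.55 within library 2, and the difference between the libraries was not tested.

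40S ribosomal protein S21 (Zm00001d012886), a protein of the small subunit, had 82.4, 51.7, 35.02 and 23.01 CPM from bin 1 to bin 4 of library 1 and 54.7, 42.5, 33.2 and 22.6 CPM in library 2 (log2 fold change -1.51 ± 0.21 SE, adjusted p = 8.59e-11). Among the most abundant members, 40S ribosomal protein S11 (Zm00001d002339) fell from 277 to 149 CPM in library 1 and from 230.2 to 172 CPM in library 2 (log2 fold change -0.59 ± 0.18 SE, adjusted p = 0.0134) and 60S ribosomal protein L38 (Zm00001d052718) fell from 237 to 108.1 CPM in library 1 and from 216 to 145 CPM in library 2 (log2 fold change -0.79 ± 0.19 SE, adjusted p = 5.25e-04). The most abundant gene, 60S ribosomal protein L10-3 (Zm00001d033128), had 1827 CPM in bin 1 and 1297 CPM in bin 4 of library 1 and 1670.3 and 1406 CPM in those of library 2 and did not pass (adjusted p = 0.201). Of the 146 that fell, 95 stepped down through all 4 bins in both libraries. Many of these genes are near-identical copies, so that values of single copies are less certain than the sum.

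Plastid ribosomal proteins, which translate the chloroplast genome, went the other way. Of 27 genes 13 rose and none fell, against 5.17 and 9.27% of all genes, with a median log2 fold change of 0.49. In bin 4 of both libraries 26 of the 27 were higher, against 5444 of all 16040 genes. 50S ribosomal protein L27 (Zm00001d011993) rose from 334 to 532 CPM in library 1 and from 597 to 1012 CPM in library 2 (log2 fold change 0.78 ± 0.17 SE, adjusted p = 1.01e-04) and 50S ribosomal protein L31 (Zm00001d044130) rose from 256 to 429 CPM in library 1 and from 608 to 832 CPM in library 2 (log2 fold change 0.67 ± 0.17 SE, adjusted p = 0.0016). 50S ribosomal protein L21 (Zm00001d016072) had 454 CPM in bin 1 and 503 CPM in bin 4 of library 1 and 360.4 and 501 CPM in those of library 2 (adjusted p = 0.131).

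**Figure D3:**
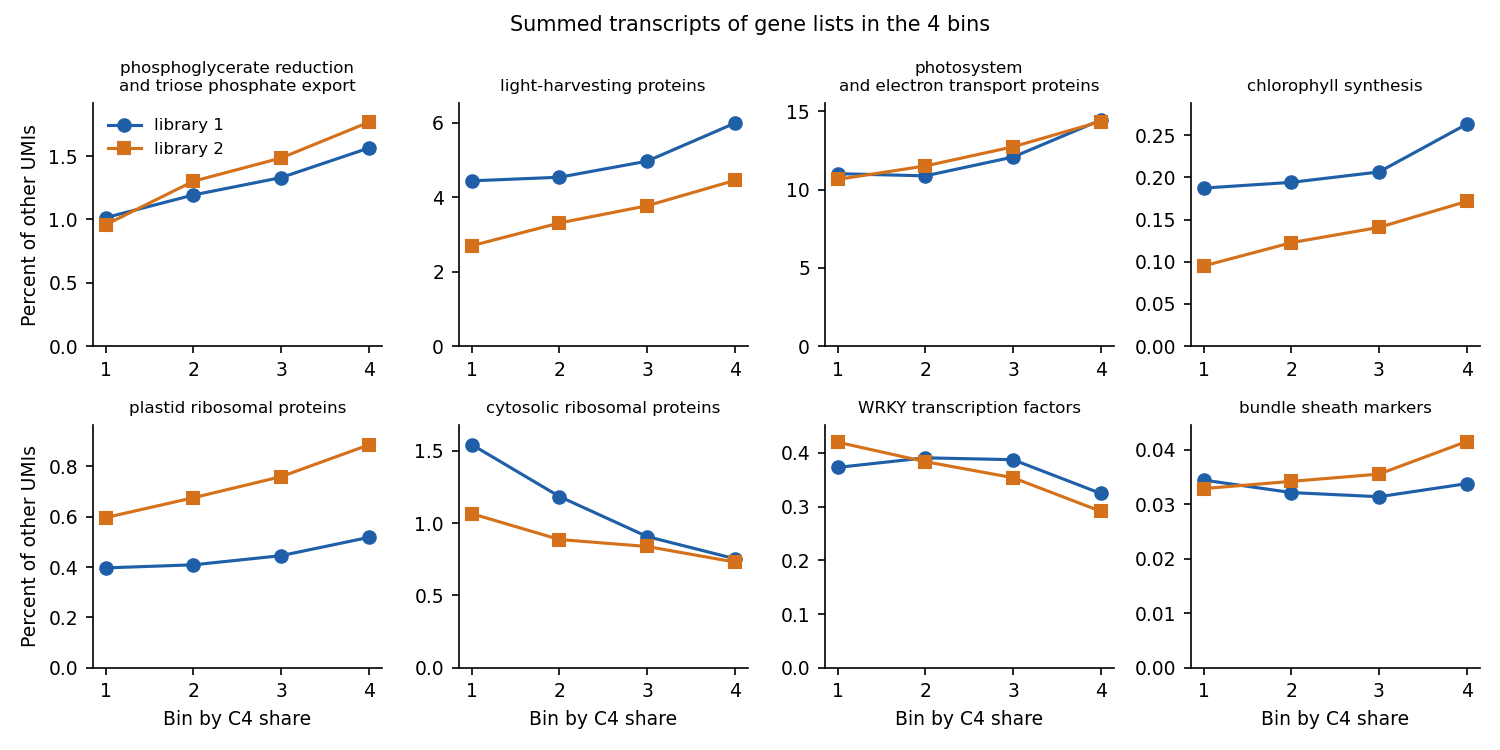
Summed transcripts of 8 gene lists as a percent of the UMIs outside PEP1, CAH1 and MDH6 (vertical axes, from 0) in the 4 bins of MS cells from lowest (1) to highest (4) C4 share; circles are library 1 and squares library 2. Cytosolic ribosomal protein transcripts fell from 1.54 to 0.754% in library 1 and from 1.065 to 0.731% in library 2 while the plastid ribosomal and light-harvesting lists went up.

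Of 30 WRKY transcription factor genes, regulators known for roles in defence, 13 fell and none rose, against 9.27 and 5.17% of all genes, with a median log2 fold change of -0.40. The 3 most abundant, Zm00001d020137, Zm00001d039245 and Zm00001d028962, had log2 fold changes of -0.25, -0.29 and -0.27 and did not pass. The 13 that fell had log2 fold changes between -1.42 and -0.61. Of all 2856 tested genes with a description 1021 changed, so the share of all genes is a low background for this list and the next ones. These described genes were not counted by direction. The shares of glutathione transferases and heat shock proteins that changed in either direction lay near theirs. Of 19 glutathione transferases, enzymes that conjugate glutathione to reactive compounds, 7 fell and 1 rose, against the same background: glutathione transferase 31 (Zm00001d027557) fell from 2370.5 to 1714 CPM in library 1 and from 1521 to 916 CPM in library 2 (log2 fold change -0.53 ± 0.16 SE, adjusted p = 0.0078), glutathione S-transferase 2 (Zm00001d024839) fell from 2094 to 1397 CPM in library 1 and from 1601 to 1016 CPM in library 2 (log2 fold change -0.55 ± 0.16 SE, adjusted p = 0.0055), and glutathione transferase 27 (Zm00001d011154) rose with a log2 fold change of 0.58. Glutathione transferase 7 (Zm00001d042104) had 2079 CPM in bin 1 and 2066 CPM in bin 4 of library 1 and 1946 and 1509.8 CPM in those of library 2 (adjusted p = 0.705).

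Of 23 heat shock proteins tested, 8 fell and 1 rose, against 9.27 and 5.17% of all genes, with a median log2 fold change of -0.18. The share that changed in either direction lay near that of the genes with a description, 1021 of 2856, so the count does not set this list apart. A small heat shock protein gene (Zm00001d039935), which encodes a chaperone, fell from 467 to 324 CPM in library 1 and from 926 to 546 CPM in library 2 (log2 fold change -0.58 ± 0.17 SE, adjusted p = 0.00819), and a Heat shock 70 kDa protein gene (Zm00001d012420) fell from 336 to 241 CPM in library 1 and from 366 to 212 CPM in library 2 (log2 fold change -0.56 ± 0.18 SE, adjusted p = 0.0158). Heat shock 70 kDa protein 3 (Zm00001d041550) had a log2 fold change of -0.18 and did not pass. The member that rose, Heat shock protein 90-5 (Zm00001d020827), is the plastid form, at 0.55 ± 0.19 SE (adjusted p = 0.0307).

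Of 13 genes listed by keyword for jasmonate synthesis 4 fell and 3 rose, against 9.27 and 5.17% of all genes. The list holds lipoxygenases and 12-oxo-phytodienoic acid reductases by their descriptions, and whether each acts in jasmonate synthesis was not tested. Lipoxygenase 2 (Zm00001d031449), a chloroplast enzyme that oxidises polyunsaturated fatty acids, had 58.7, 43.2, 32.4 and 16.4 CPM from bin 1 to bin 4 of library 1 and 73.9, 48.98, 30.5 and 21.3 CPM in library 2 (log2 fold change -1.75 ± 0.21 SE, adjusted p = 2.37e-14). The abundant 12-oxo-phytodienoic acid reductases 1 and 2, of the family that includes the reductase of the pathway, fell from 5873 to 4148 CPM in library 1 and from 6098 to 4207 CPM in library 2 for Zm00001d044908 (log2 fold change -0.45 ± 0.14 SE, adjusted p = 0.0136) and from 5930.1 to 4218 CPM in library 1 and from 5211 to 3279 CPM in library 2 for Zm00001d044906 (log2 fold change -0.51 ± 0.14 SE, adjusted p = 0.00421). Allene oxide cyclase 3 (Zm00001d047340) fell with a log2 fold change of -0.69. Lipoxygenase 10 (Zm00001d053675) rose from 391 to 694 CPM in library 1 and from 471 to 628 CPM in library 2 (log2 fold change 0.69 ± 0.17 SE, adjusted p = 9.87e-04), and lipoxygenase 6 (Zm00001d002000) and 12-oxo-phytodienoic acid reductase 6 (Zm00001d040842) rose by 0.73 and 0.57 on the log2 scale.

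Of the genes that changed, 764 moved the same way in both libraries and had at least 50 CPM in the higher bin of each. Among those with a description, the largest increase was that of an iron-phytosiderophore transporter gene of the yellow stripe family (Zm00001d017429), whose product in grasses imports iron bound to phytosiderophores. It had 37.1, 57.3, 69.2 and 131.9 CPM from bin 1 to bin 4 of library 1 and 40.6, 50.3, 66.9 and 159 CPM in library 2, with the largest step from bin 3 to bin 4 (log2 fold change 1.97 ± 0.20 SE, adjusted p = 5.85e-20). The study names yellow stripe 1 among the genes of its iron-related cluster MS5. It did not find that cluster in its second data set and held it to be a likely artifact. An NAD(P)-linked oxidoreductase gene (Zm00001d033338) rose from 18.95 to 53.4 CPM in library 1 and from 23.3 to 69.9 CPM in library 2 (log2 fold change 1.61 ± 0.21 SE, adjusted p = 3.21e-12). Actin-1 (Zm00001d033790), a cytoskeletal gene, rose from 59.5 to 140.0 CPM in library 1 and from 70.6 to 218 CPM in library 2 (log2 fold change 1.495 ± 0.19 SE, adjusted p = 3.00e-12). Knotted1 induced 1 (Zm00001d022630) rose from 699 to 1899.8 CPM in library 1 and from 286 to 544 CPM in library 2 (log2 fold change 1.26 ± 0.17 SE, adjusted p = 1.94e-11), and its levels in the 2 libraries were far apart.

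The other large increases with a description were Pyridoxal reductase (Zm00001d007858), an enzyme of vitamin B6 metabolism, at 1.13 ± 0.19 SE on the log2 scale, and an extensin-like protein gene (Zm00001d027291), a family of cell wall proteins, at 1.02 ± 0.19 SE. Of those among the 764 genes with no description, Zm00001d007092 and Zm00001d032385 had the largest increases, 0.99 ± 0.20 and 0.98 ± 0.19 SE. All of these genes were higher in bin 4 of both libraries.

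Among the decreases of the same 764 genes the largest was that of a RING zinc finger gene (Zm00001d050514), a domain found in ubiquitin ligases, with 61.7, 27.3, 19.8 and 14.7 CPM from bin 1 to bin 4 of library 1 and 63.1, 28.4, 14.7 and 8.14 CPM in library 2 (log2 fold change -2.39 ± 0.22 SE, adjusted p = 2.24e-24). Genes outside this rule fell further, down to -4.86 in the study's MS4 list. Next among the described genes came REVEILLE 8 (Zm00001d034946), a MYB-like factor that in Arabidopsis works in the circadian clock, with 68.3, 28.5, 22.8 and 16.3 CPM from bin 1 to bin 4 of library 1 and 87.1, 66.6, 38.8 and 18.7 CPM in library 2 (log2 fold change -2.07 ± 0.21 SE, adjusted p = 5.21e-20). Both went down step by step in both libraries, the RING gene mostly between bins 1 and 2.

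An ABA-responsive protein gene (Zm00001d023664) fell from 458 to 158 CPM in library 1 and from 703 to 196 CPM in library 2 (log2 fold change -1.62 ± 0.18 SE, adjusted p = 1.26e-16) and Dehydration-responsive element-binding protein 1B (Zm00001d021208), a transcription factor of cold and drought responses, fell from 278 to 121 CPM in library 1 and from 524 to 133 CPM in library 2 (log2 fold change -1.52 ± 0.18 SE, adjusted p = 8.16e-14). A proline-rich protein gene (Zm00001d049381) fell from 137 to 40.9 CPM in library 1 and from 126 to 27.5 CPM in library 2 (log2 fold change -1.89 ± 0.20 SE, adjusted p = 3.66e-18), and a second one (Zm00001d026297) fell from 79.4 to 28.8 CPM in library 1 and from 73.6 to 17.8 CPM in library 2 (log2 fold change -1.67 ± 0.21 SE, adjusted p = 2.40e-13). These 4 genes are named for their rank only.

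Rhomboid-like protein 14 (Zm00001d008214), of a family of membrane proteases, fell from 184 to 78.0 CPM in library 1 and from 414 to 101.1 CPM in library 2 (log2 fold change -1.56 ± 0.19 SE, adjusted p = 5.16e-14). Cell number regulator 2 (Zm00001d050899) and CC3, a cystatin that inhibits cysteine proteases, had log2 fold changes of -1.499 ± 0.20 and -1.41 ± 0.20 SE, and a heavy metal-associated isoprenylated plant protein gene (Zm00001d004138) of -1.397 ± 0.18 SE. The study found CC3 mainly in its adaxial group of bundle sheath cells, and it is not in the list of BS markers below. CC3 fell from 113 to 29.2 CPM in library 1 and from 75.9 to 38.9 CPM in library 2, where 1 cell held 15.8% of its UMIs in bin 1. Of those among the 764 genes without a description, Zm00001d034130 and Zm00001d016674 fell most, the first from 51.7 to 13.6 CPM in library 1 and from 53.5 to 9.63 CPM in library 2 and the second from 67.5 to 18.7 CPM in library 1 and from 146.99 to 46.9 CPM in library 2.

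**Figure D4:**
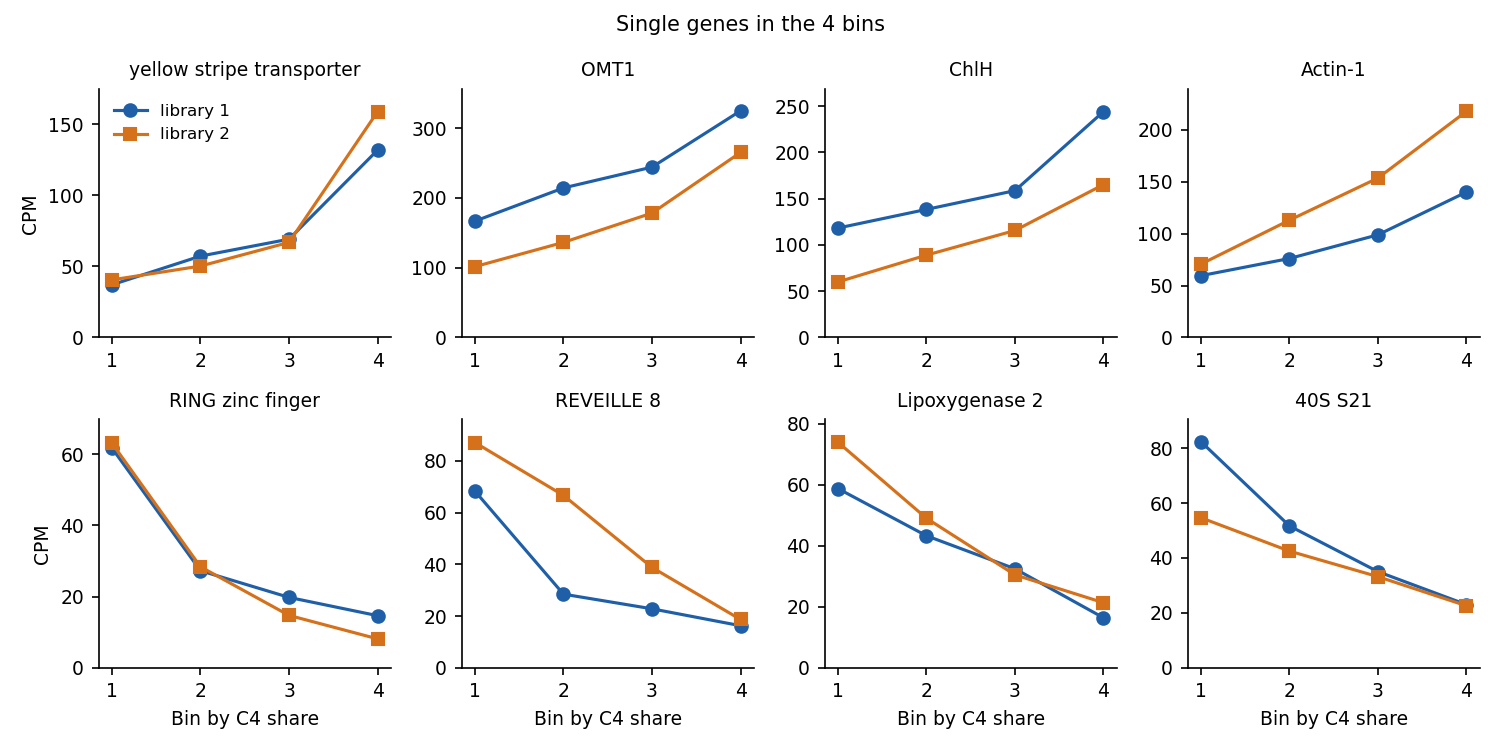
CPM (vertical axes, from 0) of 8 genes in the 4 bins of MS cells from lowest (1) to highest (4) C4 share, in library 1 (circles) and library 2 (squares). The upper row holds genes that rose, with the yellow stripe transporter going from 37.1 to 131.9 and from 40.6 to 159 CPM, and the lower row genes that fell, with REVEILLE 8 going from 68.3 to 16.3 and from 87.1 to 18.7 CPM.

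Nitrogen and photorespiratory genes moved in part. GLN1, the leaf chloroplast isozyme of glutamine synthetase, which assimilates ammonium, rose from 451 to 695 CPM in library 1 and from 315 to 662 CPM in library 2 (log2 fold change 0.91 ± 0.17 SE, adjusted p = 5.66e-06), GLN2, described as a root isozyme, fell from 10.8 to 4.395 CPM in library 1 and from 4.87 to 2.18 CPM in library 2 (log2 fold change -1.19 ± 0.28 SE, adjusted p = 6.15e-04), and GLN4 had 192 CPM in bin 1 and 198 CPM in bin 4 of library 1 and 202 and 231 CPM in those of library 2 (adjusted p = 0.59). Of 7 photorespiratory genes 3 rose, against 5.17% of all genes, with a median log2 fold change of 0.34: the plastidal glycolate/glycerate translocator (Zm00001d030127), which passes both ends of the pathway through the envelope, rose from 98.2 to 143 CPM in library 1 and from 93.3 to 198 CPM in library 2 (log2 fold change 0.88 ± 0.19 SE, adjusted p = 1.06e-04). GLYK, the kinase that returns glycerate to the Calvin cycle, rose from 413.1 to 599 CPM in library 1 and from 492 to 842 CPM in library 2 (log2 fold change 0.72 ± 0.17 SE, adjusted p = 4.46e-04), and Catalase isozyme 2 (Zm00001d027511) rose from 6.83 to 12.9 CPM in library 1 and from 16.99 to 24.8 CPM in library 2 (log2 fold change 0.80 ± 0.23 SE, adjusted p = 0.00591). Glycolate oxidase 1 (Zm00001d018810), Serine hydroxymethyltransferase 7 (Zm00001d012247), the peroxisomal hydroxypyruvate reductase (Zm00001d014919) and glycine decarboxylase 1 (Zm00001d023437) had log2 fold changes of 0.34, 0.04, 0.18 and 0.00 and did not pass.

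Markers of the BS were measured beside these results because a droplet can hold RNA or cells of another type. Of 12 BS marker genes 9 had enough UMIs to be tested, none rose and 1 fell (median log2 fold change 0.24, against 5.17% of all genes higher and 9.27% lower). Of these 9, 1 rose with upper-quartile scaling, with depth-matched bins, with at least 10 UMIs in every sum and in cells with 0 UMIs of ME1 and RBCS1, and 2 rose with the cells ranked by PEP1 alone. RBCS2, a small subunit of Rubisco, had 68.8 CPM in bin 1 and 28.5 CPM in bin 4 of library 1 and 33.7 and 32.4 CPM in those of library 2, so its fall rests on library 1 (log2 fold change -0.63 ± 0.21 SE, adjusted p = 0.0198). MDH, a malate dehydrogenase, had 128 CPM in bin 1 and 146 CPM in bin 4 of library 1 and 143 and 198 CPM in those of library 2 (adjusted p = 0.147). TK1, a transketolase of the Calvin cycle, had 42.5 CPM in bin 1 and 57.4 CPM in bin 4 of library 1 and 52.7 and 71.7 CPM in those of library 2 (adjusted p = 0.0615), higher in bin 4 of both libraries but short of the threshold. PCK1, RBCL, RCA2, SHBP1, FBPA-1 and GLN3 had log2 fold changes of 0.50, 0.24, 0.02, 0.08, 0.38 and -0.11, and PRK2, UmamiT20a and FBPA-2 stayed below the limit for testing, at no more than 1.059 CPM in any bin.

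The 12 BS markers together made up between 0.0314 and 0.0345% of the UMIs outside the 3 genes in the bins of library 1, and 0.0329, 0.0342, 0.0356 and 0.0416% from bin 1 to bin 4 of library 2. ME1 and RBCS1, which the choice of MS cells used, had together 117.3, 100.02, 104.8 and 103.8 UMIs per 1000000 from bin 1 to bin 4 of library 1 and 102.6, 105.4, 124.5 and 161.3 in library 2, so both sums went up with the C4 share in library 2; their part in the other results there was not tested. In cells with 0 UMIs of both genes, 1312 genes changed, and 1205 of these were among the 2317. Phloem and sucrose export transcripts were near 0: SWEET13a and SWEET13c had log2 fold changes of -0.13 and 0.23 and did not pass, and SWEET13b, SUT1 and UmamiT21a were not tested, at no more than 0.794 CPM.

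Genes of nicotianamine and iron handling rest on few cells. NAS1, NAS10 and NAAT1, which act in making nicotianamine and the phytosiderophores derived from it, passed the test, 3 of 6 tested against 5.17% of all genes higher, with log2 fold changes of 1.77, 1.11 and 0.98, but a single cell supplied 38.6% of the 83 NAS1 UMIs in bin 4 of library 1 and 95.8% of the 24 in bin 4 of library 2. TAAT, NAS9 and NAS2 had log2 fold changes of 0.42, 1.22 and 0.44 and did not pass. Without the cells that held 3 or more UMIs of these synthase genes, 2304 genes changed, 2272 of them among the 2317, and the yellow stripe transporter had a log2 fold change of 1.92.

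The study chose the lists of genes that mark its 5 MS clusters on cells of 1 of these libraries, and their counts over both libraries are not independent evidence; of all genes tested, 5.17% were higher and 9.27% lower. The MS3 list had 193 of 410 tested genes higher and 2 lower, and the MS1 list 83 of 248 higher and 24 lower. The MS4 list had 418 of 690 lower and 2 higher, and the MS2 list 220 of 799 lower and 2 higher. The study describes MS3 and MS4 as rich in transcripts related to ribosomal proteins. It did not evaluate further whether these clusters are cell populations of the leaf or artifacts. The ribosomal protein lists above were drawn from genes that the study describes, so the MS3 and MS4 lists can hold the same genes. Their overlap was not counted, and the counts of these lists are not separate results. In the MS5 list 17 of 97 rose and 1 fell. The few that went against their list were a MAPKKK family kinase (Zm00001d011656) and ZIM-transcription factor 28 (Zm00001d020614) in MS3, S-adenosylmethionine decarboxylase (Zm00001d003157) and 2-Cys peroxiredoxin BAS1 (Zm00001d016736) in MS4, an Actin cross-linking protein gene (Zm00001d013057) and Cytochrome P450 98A3 (Zm00001d043174) in MS2, and Zm00001d043444 in MS5. Of the genes the study listed as enriched by protoplasting, 7 of 49 were higher and 6 lower, and of those it listed as depleted, 5 of 33 were higher and 4 lower, against 5.17 and 9.27% of all genes.

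The counts and medians of the lists depended on the gene that ranked the cells. Of all genes tested, 11.9% changed with PEP1 alone (5.93% higher and 6% lower), 6.69% with CAH1 alone (1.48 and 5.21%) and 1.58% with MDH6 alone (0.614 and 0.968%). With the cells ranked by CAH1 alone, 1058 genes changed and 136 of 183 cytosolic ribosomal protein genes fell, with a median of -1.27 in library 1 and -0.49 in library 2. With PEP1 alone, 1908 genes changed and 45 of the 183 fell, with medians of -0.24 and -0.55. With MDH6 alone, 250 genes changed and none of the 183 passed, with medians of -0.34 and 0.09 that differed in sign between the libraries. The spread that edgeR estimated (common dispersion) was 0.0169 with PEP1, 0.0175 with CAH1 and 0.0313 with MDH6. With MDH6, 3001 genes had an unadjusted p under 0.05 in the edgeR test, and 250 passed after adjustment. Counts of genes that passed are therefore not comparable between the rankings. These rankings share cells, and their differences were not tested.

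Light-harvesting genes had a median of 0.80 with PEP1 and 20 of 21 rising, and 0.47 with CAH1 and 9 rising. With MDH6 their median was 0.15, and 2 rose and 2 fell. Plastid ribosomal protein genes had a median of 0.58 with PEP1 and 20 of 27 rising, 0.13 with CAH1 and none rising, and 0.91 with MDH6 and 4 rising. The genes for phosphoglycerate reduction and triose phosphate export had a median of 0.75 with PEP1, 0.63 with CAH1 and 0.71 with MDH6, where none of the 6 passed. WRKY genes had medians of -0.34, -0.19 and -0.76 in the same order, with 7, 5 and none falling.

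**Figure D5:**
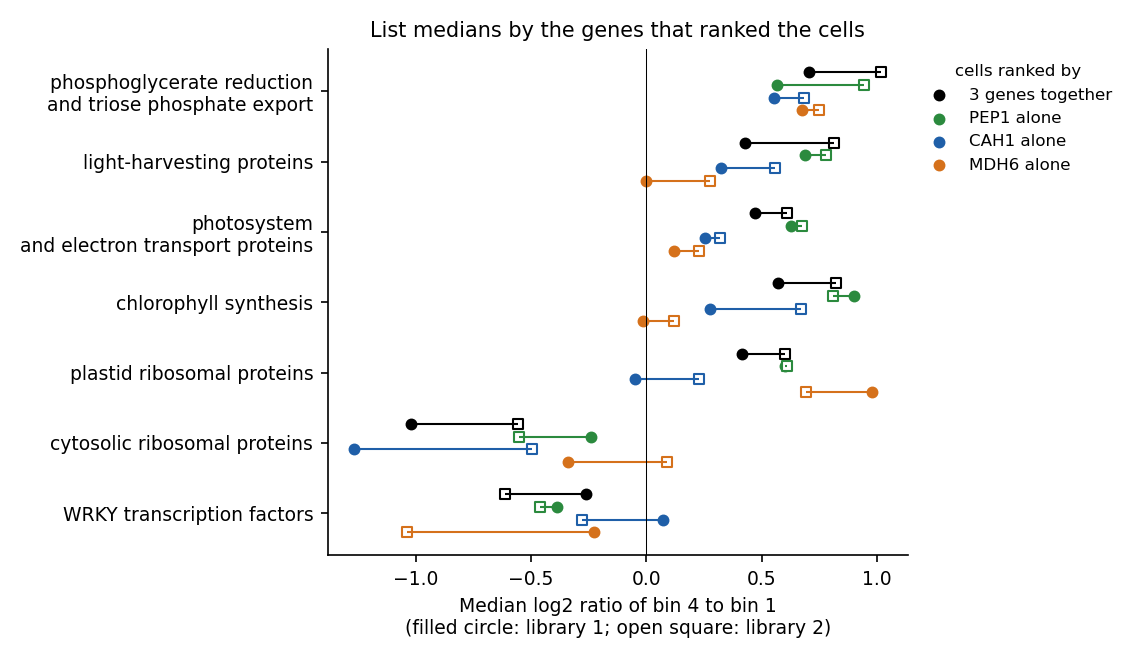
Median log2 ratio of bin 4 to bin 1 (horizontal axis) of 7 gene lists when the MS cells were ranked by the 3 genes together or by PEP1, CAH1 or MDH6 alone; filled circles are library 1, open squares library 2, and lines join the libraries. Cytosolic ribosomal proteins went down most with CAH1 in library 1 (-1.27), and phosphoglycerate reduction stayed between 0.55 and 1.02 throughout.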

How the data were processed

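Per the file headers and the study's methods, the authors made the deposited UMI counts with Cell Ranger (software version 3.1.0 in the headers) on the B73 RefGen 4 genome, and filtered and clustered cells with Seurat 3.1. From the deposited counts, cells with more than 1800 and fewer than 7000 genes, under 4% chloroplast and 0.75% mitochondrial UMIs were kept. This filter leaves more cells than the study reports. No doublet caller was run; the upper limit on genes was the only step against doublets. UMIs were summed per library and bin (25% of the MS cells each), filtered with filterByExpr, scaled by TMM without PEP1, CAH1 and MDH6, and tested with edgeR 4.0.16 (glmQLFit, library as a term; R 4.3.3), ME1 and RBCS1 left out. SE is the absolute log2 fold change over the square root of F, so it carries the shared spread and not that of the single gene. Fold changes include the TMM factors and so differ slightly from ratios of the CPM printed. The script was tested on simulated data. DESeq2 1.42.0, other scalings, filters, limits, cell subsets and rankings were tried. Library as a block pairs the sides because both come from 1 pool.

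The members, the gene lists and the tests were chosen with earlier results of these data known. Lists follow the gene descriptions and cluster lists that the study gives; 2939 of 44146 gene IDs carried such a description, and none matched the RefSeq table. Named were all genes of the C4, phosphoglycerate, BS, glutamine synthetase and photorespiration lists, the 12 largest and 12 smallest changes with a description and 2 each without (same direction in both libraries, at least 50 CPM), and the 3 most abundant tested genes of each list made by keyword; genes in counts of 5 or fewer were named after their values were seen.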

Additional observations from a re-analysis of the deposited data

How the results depend on the processing

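Against 2317 changed genes (830 higher, 1487 lower), the count left the range of 1.5 times under 6 alternatives: 1041 (391 and 650) with DESeq2, where 6220 genes got no adjusted p; 0 (0 and 0) with no replicate block; 976 (347 and 629) with each cell thinned to 3000 UMIs; 1312 (439 and 873) in cells with 0 UMIs of ME1 and RBCS1; 1058 (234 and 824) ranked by CAH1; and 250 (97 higher) ranked by MDH6. Ranked by PEP1 alone, 960 were lower. Calls shared with the 2317 numbered 899 of 976 after thinning, of which 898 had the same direction, 1294 of 1908 with PEP1, 939 of 1058 with CAH1 and 200 of 250 with MDH6. The remaining alternatives gave 1767 to 2494 genes. Without TMM factors 633 were higher and 1787 lower, and with upper-quartile scaling 1071 and 1423. The held-out genes passed with depth-matched bins too, and within single libraries their log2 ratios ranged from 0.68 to 1.12 for PEP1, 0.52 to 1.05 for CAH1 and 0.38 to 0.85 for MDH6.

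Signs changed for single genes as follows, and the cause was not tested. Without replicate 1 and without replicate 2, RBCS2 had 0.027 and -1.21, Zm00001d002993 -1.36 and 0.13, Zm00001d044396 1.698 and -0.022, and Zm00001d044399 1.65 and -0.14. Ranked by MDH6 alone, Zm00001d026599 had -0.20, Zm00001d021784 -0.023, Zm00001d053675 -0.26, NAS10 -0.19, Zm00001d042026 -0.051, Zm00001d002000 -0.021, Zm00001d013057 -0.25, Zm00001d020614 0.15, Zm00001d044396 -1.50 and Zm00001d044399 -1.67. Ranked by CAH1 alone, NAS10 had -0.65, and by PEP1 alone GLN3 had 0.94. Between the top and bottom 10% of the cells NAS1 had -0.74 and NAAT1 -0.20. The smallest log2 fold change that passed was 0.38 in size, so a gene that did not pass may still differ by less.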
